A study of Mus musculus with 9 samples.

Results

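The genes described here are 10 genes of natural killer (NK) cells and cytotoxic lymphocytes, measured as RNA in whole blood of mice. They are the granule genes Gzma, Gzmb, Prf1 and Nkg7, the receptor genes Ncr1, Klrb1c, Klrd1 and Klrg1, and the transcription factor genes Tbx21 and Eomes. For each gene the probe set with exactly 1 gene symbol and the highest mean over the 9 arrays was used. This gave a value for 9 of the 10 genes, among 18194 genes in all. Klrb1c, which encodes the receptor known as NK1.1, has no value, because the single probe set that names it is shared with its neighbor Klrb1b. C57BL/6 mice of 8 to 9 weeks were used, with 3 animals and 3 arrays in each of 3 groups. PT+HS mice had a multiple injury (polytrauma, PT) of head, femur with its soft tissue and both sides of the chest, followed by hemorrhagic shock (HS), in which blood was drawn until the mean arterial pressure stood at 30 mmHg, kept for 60 min. Fluid of 4 times the volume drawn was then given within 30 min, together with norepinephrine where the pressure required it. PT mice had the multiple injury alone, and both groups were sampled 4 h after it. Ctrl mice were not manipulated and were bled directly after anesthesia was induced. Both injured groups had longer anesthesia, buprenorphine and catheters, which Ctrl mice did not, so that trauma and these procedures cannot be told apart in any difference from Ctrl.

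NK cells and activated CD8 T cells kill target cells by releasing granules. Perforin opens the target membrane, granzymes enter and cleave proteins inside the target, and receptors on the surface of the killer decide whether the granules are released. The T-box transcription factors T-bet (Tbx21) and eomesodermin (Eomes) drive the maturation of NK cells in mice and the transcription of granule and receptor genes. In whole blood, fewer cells of a type and less RNA per cell cannot be told apart, which applies to every difference given here.

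All values are log2 signals and all differences are log2 differences, so that a difference of 1 is a doubling. Signals of different probe sets are not on a common scale, and each gene was therefore compared with itself across animals. A gene passed the study's thresholds when the unadjusted p of limma was under 0.05 and the difference was at least 1.5-fold. Adjusted p-values are those of limma with Benjamini-Hochberg adjustment over the 18194 genes. The 3 arrays per group limit the precision. PT replicate 2 stood apart, with correlations of 0.900 to 0.944 to the other 8 arrays over all genes, and results that rest on it are given with and without it. The NK cell label could be checked only in part: Ncr1, the receptor that defines NK cells most closely, had a mean signal of 4.41 and the median of all gene means was 4.29, while Tbx21 was the single measured gene under that median, with 3.92.

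Ncr1, Nkg7 and Tbx21 were lower than Ctrl in both injured groups, and Gzma, Gzmb and Klrg1 also passed the thresholds in PT. In PT+HS blood, 8 of the 9 measured genes were below Ctrl, as were 52.6% of all genes, and the median difference was -0.47, beside -0.01 over all genes. Ncr1, Nkg7 and Tbx21 passed the study's thresholds, where 1.29% of all genes passed in this direction. In PT blood all 9 genes were below Ctrl, beside 50.1% of all genes, and the median difference was -0.89. Gzma, Gzmb, Ncr1, Klrg1, Nkg7 and Tbx21 passed, all lower, where 2.26% of all genes passed in this direction. In PT+HS the number was 1 (Tbx21) without Ctrl replicate 3 or PT+HS replicate 3, and in PT it stayed at 5 or 6 without each array in turn. Over all 18194 genes, 219 and 220 passed lower in PT+HS without these arrays. In PT 324 to 997 did so without each array in turn. With the mean of both injured groups set against Ctrl, Gzma, Ncr1, Nkg7 and Tbx21 passed, all lower, where the percentage over all genes was 1.6. In PT+HS alone, all animals lay below Ctrl for the same 4 genes (6.68% of all genes), and in PT alone for these and Klrg1 and Eomes (5.12%). For the 4 genes all 6 injured animals lay below all 3 Ctrl animals, as they did for 1.62% of all genes. On all 9 arrays without weights, none of the 9 genes reached an adjusted p under 0.05 with limma or with the methods' t-test in any comparison. At an unadjusted p under 0.05, limma gave 3 genes in PT+HS, 7 in PT and 6 in both injured groups, all lower, where 2.08%, 3.44% and 3.11% of all genes were lower at this p. The smallest adjusted p was 0.405 in PT+HS, 0.343 in PT and 0.12 in both injured groups, and over all 18194 genes 0.0055%, 0.0% and 0.011% reached 0.05. The comparisons with Ctrl share the same 3 Ctrl animals.

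**Figure D1:**
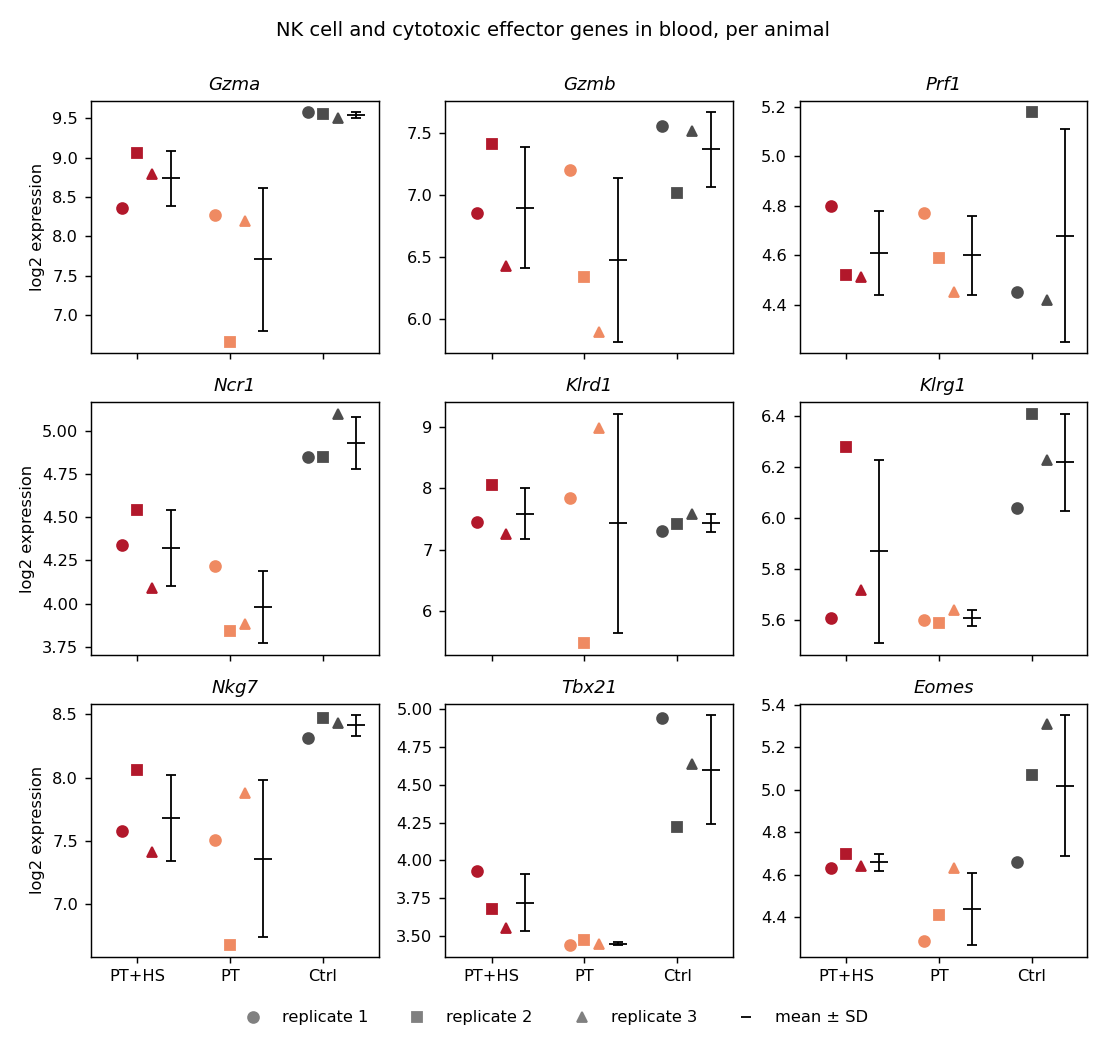
log2 signal (vertical axis, a scale of its own for each gene) of the 9 measured genes, with a point for each animal, the mean ± SD of each group beside its points and the groups PT+HS, PT and Ctrl from left to right. Gzma, Ncr1, Nkg7 and Tbx21 show all 6 injured animals below the 3 Ctrl animals, whereas Klrd1 spreads from 5.47 to 8.98 within PT.

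Among the granule genes, Gzma, a granzyme of NK and CD8 T cells that cleaves after basic residues, had the largest difference in PT blood of the 9 genes. Its signals were 8.36, 9.06 and 8.79 in PT+HS, 8.27, 6.66 and 8.20 in PT, and 9.58, 9.56 and 9.50 in Ctrl animals. The 3 Ctrl animals lay within 0.1 of each other, all 6 injured animals were below them, and PT replicate 2 was the lowest. The difference from Ctrl was -0.81 ± 0.39 (SE) in PT+HS, which did not pass the thresholds (adjusted p = 0.999). In PT it was -1.83 ± 0.39, a 3.56-fold lower signal that passed (adjusted p = 0.389). Without PT replicate 2 the difference in PT was -1.31 with an adjusted p of 0.0454 (limma), and the unchanged difference of -0.81 in PT+HS passed the thresholds. In PT+HS Gzma also passed with the methods' t-test, the arrays of the compared groups only, a variance trend, array weights (-0.81 in each) and repeated quantile normalization (-0.75), and 4 of the 9 genes then passed in each.

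Nkg7, a membrane protein of cytotoxic granules that is needed for their release in mice, had signals of 7.58, 8.06 and 7.41 in PT+HS, 7.51, 6.68 and 7.88 in PT, and 8.31, 8.47 and 8.43 in Ctrl animals. Here too every injured animal was below every Ctrl animal. PT+HS differed from Ctrl by -0.73 ± 0.29 and PT by -1.05 ± 0.29 (adjusted p = 0.949 and 0.594), and both passed the thresholds. The call in PT+HS was lost when any of the Ctrl arrays, PT+HS replicate 1 or PT+HS replicate 3 was left out, with differences between -0.59 and -0.77, and with a replicate block. The call in PT held without each array in turn.

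Gzmb, the granzyme that activates caspases in the target cell, overlapped between the groups. Its signals were 6.86, 7.41 and 6.43 in PT+HS, 7.20, 6.34 and 5.90 in PT, and 7.56, 7.02 and 7.52 in Ctrl animals, so that the highest animal of each injured group lay above the lowest Ctrl animal. The difference was -0.47 ± 0.35 in PT+HS, which did not pass, and -0.89 ± 0.35 in PT, which passed (adjusted p = 0.806). That call was lost without Ctrl replicate 1, Ctrl replicate 3, PT replicate 2 or PT replicate 3, with differences between -0.60 and -0.82, and also with the methods' t-test, array weights (-0.28) and repeated quantile normalization (-0.77).

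Prf1, which encodes perforin, had no difference past the thresholds. Its signals were 4.80, 4.52 and 4.51 in PT+HS, 4.77, 4.59 and 4.45 in PT, and 4.45, 5.18 and 4.42 in Ctrl animals. The groups overlapped fully, and Ctrl replicate 2 was the highest animal of all. The differences were -0.07 ± 0.23 in PT+HS and -0.08 ± 0.23 in PT. Their 95% intervals ran from -0.58 to 0.44 and from -0.59 to 0.43, so that a 1.5-fold lower level lay at their edge. A dimmer probe set of Prf1 averaged 3.76 in PT+HS, 4.13 in PT and 3.83 in Ctrl animals, and its difference in PT had the opposite sign (0.30).

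Among the receptors, Ncr1 passed in both injured groups, Klrg1 in PT and Klrd1 in neither. Ncr1 encodes the activating receptor NKp46, which in blood is carried almost only by NK cells. Its signals were 4.34, 4.54 and 4.09 in PT+HS, 4.22, 3.84 and 3.88 in PT, and 4.85, 4.85 and 5.10 in Ctrl animals. Every injured animal was below every Ctrl animal. The difference was -0.61 ± 0.19 in PT+HS and -0.95 ± 0.19 in PT (adjusted p = 0.679 and 0.343), and both passed the thresholds. The difference in PT+HS came to less than 1.5-fold without Ctrl replicate 3 (-0.53) or PT+HS replicate 3 (-0.50).

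Klrg1, an inhibitory receptor of mature NK cells and effector T cells, had signals of 5.61, 6.28 and 5.72 in PT+HS, 5.60, 5.59 and 5.64 in PT, and 6.04, 6.41 and 6.23 in Ctrl animals. The 3 PT animals were nearly equal and all below Ctrl, while PT+HS replicate 2 lay within the Ctrl range. The difference was -0.35 ± 0.20 in PT+HS, which did not pass, and -0.61 ± 0.20 in PT, which passed (adjusted p = 0.71). In PT it was below 1.5-fold without Ctrl replicate 2 (-0.52) and with repeated quantile normalization (-0.57).

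Klrd1 encodes CD94, the partner chain of the NKG2 receptors, which mouse NK cells and part of the CD8 T cells carry. Its signals were 7.45, 8.06 and 7.26 in PT+HS, 7.84, 5.47 and 8.98 in PT, and 7.30, 7.42 and 7.59 in Ctrl animals. PT held both the lowest and the highest animal of the 9, and its SD was 1.79, beside 0.42 in PT+HS and 0.15 in Ctrl. The differences from Ctrl were 0.15 ± 0.69 in PT+HS and -0.01 ± 0.69 in PT. Without PT replicate 2 the difference in PT was 0.97. The mean signal of 10 measured T-cell markers moved in the same way within PT, with 7.09, 6.03 and 8.16 in replicates 1 to 3, and its part in the Klrd1 values was not tested.

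Of the T-box factors Tbx21 passed in both injured groups and Eomes in neither. Tbx21 had signals of 3.93, 3.68 and 3.55 in PT+HS, 3.44, 3.47 and 3.45 in PT, and 4.94, 4.22 and 4.64 in Ctrl animals. Every injured animal was below every Ctrl animal, and the 3 PT animals were nearly identical at the low end of the scale. The difference was -0.88 ± 0.20 in PT+HS and -1.15 ± 0.20 in PT (adjusted p = 0.405 and 0.343), 1.84-fold and 2.22-fold lower. Both passed the thresholds, also without each array in turn. Eomes had signals of 4.63, 4.70 and 4.64 in PT+HS, 4.29, 4.41 and 4.63 in PT, and 4.66, 5.07 and 5.31 in Ctrl animals. All PT animals were below all Ctrl animals, but the difference of -0.58 ± 0.19 (adjusted p = 0.721) was 1.49-fold and just short of the threshold, and without Ctrl replicate 1 (-0.75) or PT replicate 3 (-0.67), or with array weights (-0.68), it passed. In PT+HS it was -0.36 ± 0.19. A second, dimmer probe set of Eomes gave -0.03 in PT+HS and 0.07 in PT.

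Since T-bet and eomesodermin bind T-box elements with the core TCACAC, the 250 bases before the transcription start of each gene were searched for these 6 letters on both strands, with RefSeq sequences of build GRCm38.p6. A window was at hand for 8 of the 10 genes, Klrb1c included and Klrd1 and Klrg1 not. The letters were found in Ncr1, Nkg7 and Gzmb, and these 3 windows are shown because they hold them. Of all 32851 windows 12.3% hold them, a share counted per window and not per gene. The 8 genes have 9 windows, because Ncr1 has a second one (chr7:4337474-4337723, not shown). It holds the same match, 89 bases before its start. In the printed sequences, 5′ to 3′ on the gene's strand, the capitals mark the match, which reads GTGTGA where it lies on the opposite strand. In the windows shown, the match began 80 bases before the start in Ncr1 (chr7:4337465-4337714, plus strand), 12 in Nkg7 (chr7:43436888-43437137, plus strand) and 15 in Gzmb (chr14:56262335-56262584, minus strand).
Ncr1: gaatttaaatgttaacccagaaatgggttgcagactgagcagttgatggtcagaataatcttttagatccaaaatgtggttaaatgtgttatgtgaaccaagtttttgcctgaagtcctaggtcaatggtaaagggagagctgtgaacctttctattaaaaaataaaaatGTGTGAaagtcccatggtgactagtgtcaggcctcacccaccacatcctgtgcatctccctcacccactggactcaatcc
Nkg7: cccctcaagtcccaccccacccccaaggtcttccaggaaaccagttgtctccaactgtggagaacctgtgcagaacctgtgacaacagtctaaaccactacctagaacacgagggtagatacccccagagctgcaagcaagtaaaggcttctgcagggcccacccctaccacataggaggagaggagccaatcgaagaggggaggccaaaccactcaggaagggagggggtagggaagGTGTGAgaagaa
Gzmb: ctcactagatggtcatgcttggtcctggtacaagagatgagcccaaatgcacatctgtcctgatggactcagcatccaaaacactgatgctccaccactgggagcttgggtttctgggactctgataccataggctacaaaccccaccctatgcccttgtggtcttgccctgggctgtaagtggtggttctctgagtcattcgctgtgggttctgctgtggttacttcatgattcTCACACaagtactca
The windows of Gzma, Prf1, Tbx21, Eomes and Klrb1c do not hold these letters. Genes with and without them were both among those that passed, namely Ncr1, Nkg7 and Gzmb with them and Gzma and Tbx21 without them in PT blood. A match of letters is a description of the sequence and was not tested as a binding site.

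Added hemorrhage was addressed by PT+HS against PT. The fluid and norepinephrine of PT+HS mice came with the hemorrhage, so that these cannot be told apart in this comparison. Each of the 9 genes had a positive difference, beside 49.3% of all genes, and their median was 0.27 beside -0.0 over all genes, but for 8 of them the 95% interval included 0. Gzma alone passed the thresholds, with a difference of 1.03 ± 0.39 (2.04-fold, 95% interval 0.16 to 1.89, adjusted p = 1.0), where 0.726% of all genes passed in this direction. All 3 PT+HS animals lay above all 3 PT animals for Gzma, Tbx21 and Eomes, beside 3.61% of all genes, with the nearest Eomes animals of both groups at 4.63. The Gzma call rested on single animals: it was 0.50 without PT replicate 2, below 1.5-fold, and it missed the p threshold without PT+HS replicate 2 (0.86) or PT+HS replicate 3 (1.0). The methods' t-test did not call it either. At an unadjusted p under 0.05, Gzma was again the only gene of the 9, beside 1.68% of all genes in this direction. The signs also depended on PT replicate 2: without it the differences of Nkg7 (-0.02) and Klrd1 (-0.82) were negative.

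For the other genes, the difference of PT+HS from PT and its 95% interval were 0.34 with -0.07 to 0.76 for Ncr1, 0.42 with -0.37 to 1.21 for Gzmb and 0.32 with -0.34 to 0.98 for Nkg7. They were 0.27 with -0.19 to 0.72 for Tbx21, 0.26 with -0.19 to 0.72 for Klrg1, 0.21 with -0.22 to 0.65 for Eomes and 0.01 with -0.50 to 0.52 for Prf1. The widest was that of Klrd1, 0.16 with -1.39 to 1.71. A 1.5-fold higher level in PT+HS than in PT therefore lay within the interval of every gene but Prf1.

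The group means ran PT, PT+HS, Ctrl from low to high for 8 of the 9 genes and for 19.2% of all genes. Klrd1 was the exception, with PT+HS on top. Without PT replicate 2 the difference of PT+HS from PT was -0.02 for Nkg7 and -0.82 for Klrd1, so that Nkg7 no longer had this order. Neighbors in this order differed beyond the thresholds in only some genes: PT+HS and PT in Gzma, and PT+HS and Ctrl in Ncr1, Nkg7 and Tbx21. Some animals were high or low in several genes. PT+HS replicate 2 was the highest PT+HS animal in 7 of the 9 genes and the lowest in none, and PT replicate 2 was the lowest PT animal in 5 of the 9. The same counts were not made over all genes, so these numbers cannot be called particular to the 9 genes. PT replicate 2 also stood apart over all genes.

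**Figure D2:**
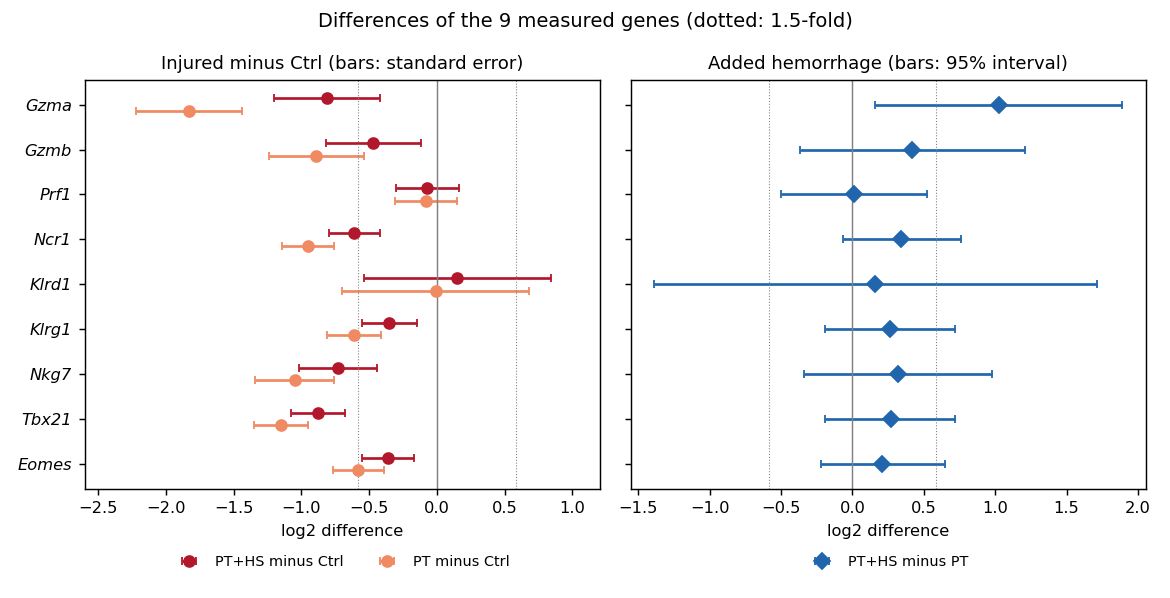
log2 differences of the 9 measured genes, on the left from Ctrl (PT+HS above PT, bars are standard errors) and on the right PT+HS minus PT (bars are 95% intervals). The dotted lines mark 1.5-fold, and every gene but Klrd1 in PT+HS lies at or below 0 on the left.

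The genes did not all vary together over the 9 animals. The correlation of a gene with the mean of the other measured genes was 0.968 for Nkg7, 0.932 for Gzma and 0.891 for Ncr1, lay between 0.623 and 0.787 for Klrg1, Eomes, Tbx21 and Gzmb, and was 0.269 for Klrd1 and 0.0488 for Prf1 (Pearson's r, 9 arrays, as a description). The arrays share their groups and PT replicate 2, which both enter these values. The 5 genes outside the list with the highest correlation to its mean were Slc25a1, the mitochondrial citrate carrier, with 0.961, Lat2, an adaptor of immune receptor signaling, with 0.957, Smim14 with 0.954, Fdps, an enzyme of the mevalonate pathway, with 0.953, and Phtf2 with 0.943. Lat2 had signals of 6.12, 6.16 and 5.66 in PT+HS, 5.90, 4.90 and 5.72 in PT, and 6.37, 7.01 and 6.84 in Ctrl animals. These 5 were named by likeness over 9 arrays out of all genes, and nothing further was read from them.

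Whether granule genes differed by another amount than receptor genes of the same animals was tested by subtracting, on each array, the mean of Ncr1 and Klrd1 from each granule gene. Gzma relative to these receptors averaged 2.39 ± 0.49 (SD) in the 6 injured animals and 3.36 ± 0.19 in the 3 Ctrl animals, a difference of -0.96. Nkg7 averaged 1.69 ± 0.21 in injured and 2.22 ± 0.13 in Ctrl animals, a difference of -0.53. Both had an exact two-sided permutation p of 0.0238, the smallest that 6 against 3 animals allow, and 0.19 after adjustment over 16 tests. With so few animals, no values could have brought an adjusted p under 0.05 in these 16 tests. The adjustment therefore cannot decide, and neither difference is taken as established. For Gzmb the difference was -0.32 and for Prf1 0.28 (exact permutation p = 0.619 each). The 3 against 3 comparisons cannot go below 0.1. The outcome depended on the receptor: against Ncr1 alone Gzma differed by -0.54 and Nkg7 by -0.10 (exact permutation p = 0.119 and 0.643), and against Klrd1 alone by -1.39 and -0.96 (exact permutation p = 0.0238 and 0.0952). Using the receptors singly was chosen after the data had been seen.

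Other lists of genes of NK cells and of killing had medians near 0 and held genes that passed in either direction. Of 38 further NK receptors, adaptors and homing genes 32 were measured, with median differences of 0.03 in PT+HS and -0.01 in PT. In PT+HS 5 passed higher and 2 lower, where 1.99% of all genes passed higher and 1.29% lower. In PT 3 passed higher and 5 lower, where the shares of all genes were 1.41% and 2.26%. Fcgr3, the Fc receptor CD16 that NK cells share with neutrophils and monocytes, had the largest increase, with 9.40, 8.98 and 9.42 in PT+HS, 9.57, 8.46 and 8.75 in PT, and 7.90, 7.66 and 7.34 in Ctrl animals. It was 1.63 ± 0.29 higher in PT+HS and 1.29 ± 0.29 in PT (adjusted p = 0.189 and 0.394). The others that passed higher were Cd244a, an NK receptor of the SLAM family, and Itgam, the integrin chain CD11b, in both groups, and the adaptor gene Tyrobp and the IL-18 receptor chain Il18rap in PT+HS. These genes are known to be active in myeloid cells as well, and the neutrophil markers were higher in the same groups. Without Ctrl replicate 1 the genes of this list that passed were 4 in PT+HS and 4 in PT, and without PT+HS replicate 3 they were 4 in PT+HS. Of all 18194 genes 673, 683 and 550 passed in either direction in these settings, in the same order. On all arrays 596 passed in PT+HS and 668 in PT. The part of neutrophils and other myeloid cells in the values of Fcgr3, Cd244a, Itgam, Tyrobp and Il18rap was not tested.

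Those lower were in part receptors and homing genes of NK cells. Klra7, an inhibitory Ly49 receptor, differed by -1.07 in PT+HS and -1.12 in PT, but Ly49 genes are near-identical and their probe sets may not tell them apart, which also applies to Klra8 (-0.72 in PT). With the mean of its probe sets Klra7 differed by -0.56 in PT+HS and -0.54 in PT, below 1.5-fold, and neither call held. The receptor gene Klre1 differed by -0.79 in PT. Without PT replicate 2 both Klra8 and Klre1 were below 1.5-fold in PT. Cx3cr1, the fractalkine receptor of mature NK cells and patrolling monocytes, differed by -0.69 in PT+HS and -1.29 in PT and passed in both. In PT+HS this call was lost without Ctrl replicate 1 or 3, PT replicate 1 or 3 or PT+HS replicate 3, with differences of -0.36 to -0.69. It was also lost with the methods' t-test, a variance trend, repeated quantile normalization (-0.65), the filter on mean signal, the mean of its probe sets (-0.51), the probe set of highest SD and a replicate block. S1pr5, the sphingosine phosphate receptor by which mouse NK cells leave bone marrow and lymph nodes, had 3.58, 3.38 and 3.57 in PT+HS, 3.25, 2.90 and 2.86 in PT, and 3.84 in each Ctrl animal. Its difference was -0.33 ± 0.16 in PT+HS and -0.84 ± 0.16 in PT (adjusted p = 0.999 and 0.343), and it passed in PT and not in PT+HS. All PT+HS animals were above all PT animals for S1pr5, with a difference of 0.50 that is below 1.5-fold. The mean signal over the 9 arrays was 3.45 for S1pr5, 4.25 for Klra7 and 4.13 for Klra8, all under the median of all gene means (4.29). The activating receptor Klrk1 (NKG2D) differed by 0.05 in PT+HS and -0.54 in PT and passed in neither.

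Of 14 other cytotoxic effectors 1 passed in PT+HS and 2 in PT, all lower, where 1.29% and 2.26% of all genes passed lower in PT+HS and in PT, with medians of -0.04 in PT+HS and -0.23 in PT. Ctsw, a cathepsin of NK and CD8 T cells, had signals of 6.17, 6.95 and 6.27 in PT+HS, 6.41, 6.48 and 7.33 in PT, and 7.49, 7.49 and 7.61 in Ctrl animals. All injured animals were below all Ctrl animals, by -1.06 ± 0.28 in PT+HS and -0.79 ± 0.28 in PT (adjusted p = 0.527 and 0.741). Ccl5, a chemokine stored in cytotoxic lymphocytes and platelets, differed by -0.14 in PT+HS and -0.73 in PT and passed in PT. Without Ctrl replicate 3 or PT replicate 2, 0 genes of this list passed in PT. Of all 18194 genes 655 and 1117 then passed in either direction, against 668 on all arrays. On all arrays 4 genes of this list had an unadjusted p of limma under 0.05 in PT, all lower, where 3.44% of all genes were lower at this p. Ctsw in PT was also lost without PT replicate 1 (-0.62) and with the methods' t-test, and Ccl5 in PT with that test and with array weights (-0.38). The granzymes Gzmk (0.29 in PT+HS and -0.02 in PT) and Gzmm (0.05 in PT+HS and -0.20 in PT) did not pass, nor did the cytokine genes Ifng (-0.21 in PT+HS and -0.39 in PT) and Xcl1 (-0.43 in PT+HS and -0.51 in PT).

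Genes of granule maturation and release ran the other way where they passed. Of 11 measured, Rab27a and Ctsc passed higher in PT+HS and Rab27a in PT, where 1.99% and 1.41% of all genes passed higher in PT+HS and in PT, with medians of -0.11 in PT+HS and 0.05 in PT. Rab27a, a GTPase that docks granules at the membrane in lymphocytes and neutrophils alike, had 5.60, 5.43 and 5.93 in PT+HS, 5.65, 5.03 and 5.84 in PT, and 4.56, 4.14 and 4.07 in Ctrl animals. It was 1.40 ± 0.25 higher in PT+HS and 1.25 ± 0.25 in PT (adjusted p = 0.189 and 0.343). Ctsc, the protease that activates granzymes and the serine proteases of neutrophils, was 0.71 higher in PT+HS and differed by 0.45 in PT. Serpinb9, the inhibitor of granzyme B, differed by -0.22 in PT+HS and -0.63 in PT and passed in neither. The call of Ctsc in PT+HS was lost when any single Ctrl or PT+HS array was left out, with differences of 0.51 to 0.82, and 1 gene then passed. It was also lost with a variance trend, repeated quantile normalization (0.74), the filter on mean signal, the probe set of highest SD and the mean of its probe sets (0.37), while array weights gave a call in PT (1.01). With the mean of its probe sets Rab27a differed by 0.51 in PT+HS and 0.45 in PT, below 1.5-fold. The number of this list that passed was 4 in PT+HS without PT replicate 2, where 831 of all 18194 genes passed in either direction, against 596 on all arrays. In PT it was 4 without PT replicate 1, 3 without PT replicate 2 or 3, and 2 without PT+HS replicate 3. Of all genes 730, 1117, 1493 and 634 passed in PT without these arrays, in the same order, against 668 on all arrays.

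Of 12 measured transcription factors other than the T-box pair, Nfil3 and Id2 passed higher in PT+HS, and in PT Nfil3 passed higher and Ikzf3 lower. The shares of all genes were 1.99% higher in PT+HS, and 1.41% higher and 2.26% lower in PT. Nfil3, which mice need to form NK cells and which myeloid cells also express, was 1.30 ± 0.32 higher in PT+HS and 0.90 ± 0.32 in PT (adjusted p = 0.448 and 0.741). Its mean signal over the 9 arrays was 3.97, under the median of all gene means (4.29). Id2, an inhibitor of E proteins needed for innate lymphoid cells, was 1.09 higher in PT+HS and differed by 0.68 in PT. Ikzf3, the zinc finger factor Aiolos, differed by -0.62 in PT+HS and -1.40 in PT. The call of Id2 in PT+HS was lost when any single Ctrl array, PT+HS replicate 1 or PT+HS replicate 2 was left out, with differences of 0.84 to 1.25. Nfil3 in PT was lost without Ctrl replicate 2 (0.79), Ctrl replicate 3 (0.72) or PT replicate 1 (0.63), and with the methods' t-test. Array weights gave a call of Id2 in PT (1.71). Without PT replicate 2, 4 factors passed in PT, where 1117 of all 18194 genes passed in either direction, against 668 on all arrays. Of 9 measured genes of the IL-15 and IL-12 axis, Il15 passed higher in PT+HS, where 1.99% of all genes passed higher. Il15, the cytokine that NK cells need to survive, had 5.07, 5.31 and 5.97 in PT+HS, 5.02, 4.61 and 5.89 in PT, and 4.42, 4.56 and 4.38 in Ctrl animals. All injured animals were above all Ctrl animals, by 1.0 ± 0.33 in PT+HS and 0.72 ± 0.33 in PT (adjusted p = 0.787 and 0.873). Its call in PT+HS was lost without PT+HS replicate 3 (0.74), and it passed in PT without PT replicate 2 (1.0), with array weights (0.62), repeated quantile normalization (0.67), the mean of its probe sets or a replicate block (0.72 each). The number of this list that passed in PT+HS was 2 without Ctrl replicate 1 or 2 or PT replicate 1 or 3. Of all genes 673, 516, 614 and 702 passed in PT+HS without these arrays, in the same order and in either direction, against 596 on all arrays. The smallest adjusted p in these 5 lists was 0.189 in PT+HS and 0.343 in PT. In PT+HS against PT the single gene of them that passed was Ccl3 (0.59), a chemokine of activated leukocytes that was named because the count was 1. Its mean signal of 3.73 was also under the median of all gene means. Without each array in turn, 0 to 8 of the NK receptors and adaptors passed in this comparison (8 without PT replicate 1, 4 without PT+HS replicate 3, 3 without PT replicate 2), 0 to 2 of the other effectors, 0 to 1 of the granule genes, 0 to 2 of the transcription factors and 0 to 1 of the IL-15 and IL-12 axis. Of all 18194 genes 506, 242 and 855 passed without these arrays, in the same order and in either direction, against 204 on all arrays.

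**Figure D3:**
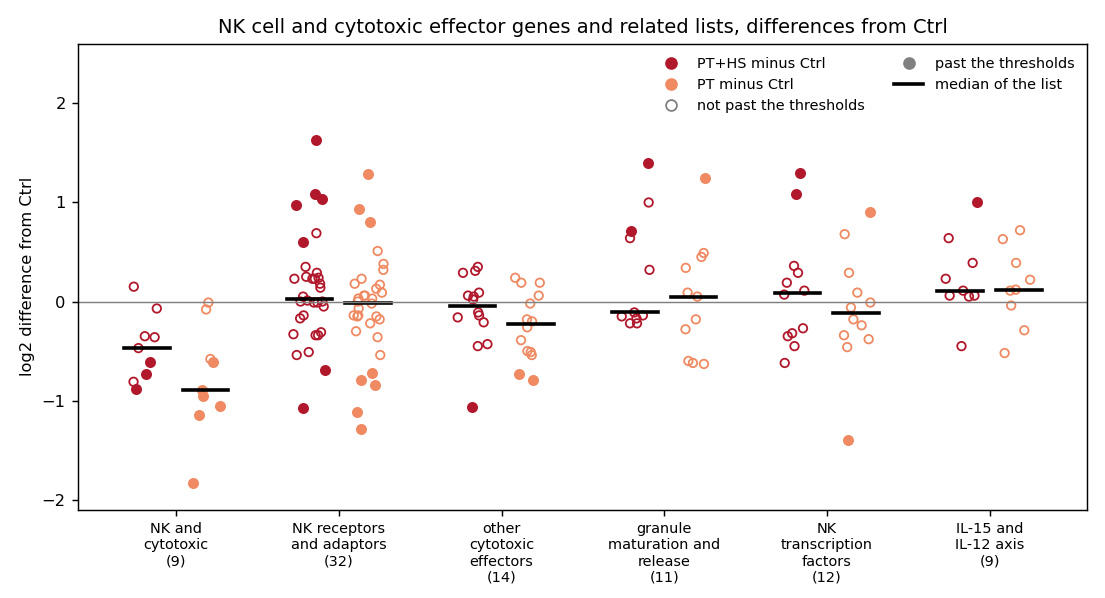
log2 differences from Ctrl (vertical axis) of the 9 measured genes and of the 5 related lists, with the number of measured genes below each name, PT+HS left of PT, filled points past the study's thresholds and bars at the medians. The medians of the 9 genes are -0.47 in PT+HS and -0.89 in PT, and those of the other lists lie between -0.23 and 0.12.

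Markers of other blood cells moved with the same groups. The mean of 6 B-cell markers ran from 6.07 to 6.56 in PT+HS, from 5.75 to 7.24 in PT and from 7.37 to 8.22 in Ctrl animals, and 5 of the 6 passed lower in each injured group. Of all genes 1.29% passed lower in PT+HS and 2.26% in PT. The mean of 6 neutrophil markers ran from 9.73 to 10.82 in PT+HS, from 9.20 to 10.50 in PT and from 8.25 to 8.89 in Ctrl animals, and 5 passed higher in PT+HS and 4 in PT. Of all genes 1.99% passed higher in PT+HS and 1.41% in PT. None of 10 T-cell markers passed in either group with limma, nor had any an unadjusted p under 0.05, and their mean ran from 6.64 to 7.32 in PT+HS, from 6.03 to 8.16 in PT and from 6.66 to 7.53 in Ctrl animals. Within PT the SD of this mean was 1.07. Of these markers Ccr7, the homing receptor of naive T cells, differed by -1.10 in PT+HS, with all animals below Ctrl, and by -0.86 in PT, and did not pass in either group. The mean of 5 platelet markers was 10.89 ± 0.15 (SD) in PT+HS, 10.66 ± 0.06 in PT and 11.02 ± 0.10 in Ctrl animals. Of 5 monocyte markers, Cx3cr1 among them, 2 passed in PT+HS and 3 in PT, in both directions, beside the shares of all genes given above. The pan-leukocyte gene Ptprc differed by -0.09 in PT+HS and -0.18 in PT. The part of these cell types in the values of the cytotoxic genes was not tested.

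**Figure D4:**
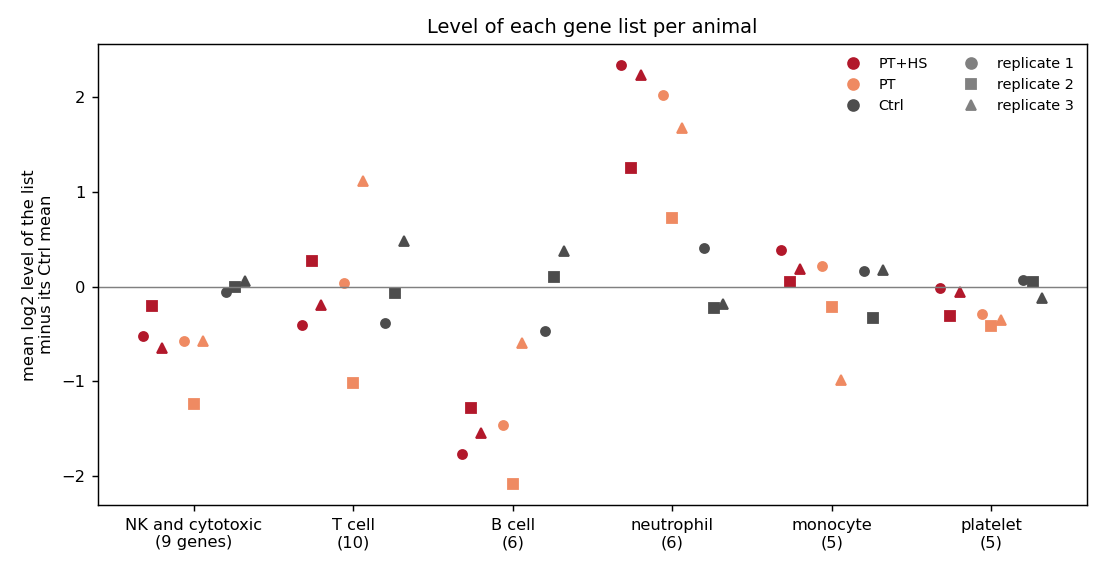
Mean log2 signal of the 9 measured genes and of marker lists of other blood cells, as the difference from the Ctrl mean of the same list (vertical axis), with a point for each animal, a shape for each replicate number and the groups PT+HS, PT and Ctrl from left to right. All injured animals lie below Ctrl for the 9 genes and the B-cell markers and above for the neutrophil markers. Before subtraction the 9 genes average 5.82 to 6.26 in PT+HS, 5.23 to 5.90 in PT and 6.41 to 6.53 in Ctrl animals.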

How the data were processed

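Whole-blood RNA of 3 PT+HS, 3 PT and 3 Ctrl mice was measured on 9 Affymetrix arrays, 1 per animal. The authors deposited log2 values made by robust multiarray average (background correction, quantile normalization between arrays, a summary per probe set) with Expression Console and BRB-ArrayTools, versions not given in the sources used here. Quantile normalization removes any shift of the whole array. The paper names another array type than the deposited probe sets belong to, and the annotation matching those probe sets was used. Scan dates were not used. No pairing of animals across groups is given.

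Of 45101 probe sets, 34958 with exactly 1 symbol were kept, and 18194 genes were represented by their probe set with the highest mean. Group means were fitted to all 9 arrays with limma 3.58.1 in R 4.3.3, with two-sided moderated tests and Benjamini-Hochberg adjustment over all genes, and no filter on low values. Exact permutation tests used scipy 1.17.1. The fit was tested on simulated data. Named are the 10 genes, their further probe sets, up to 4 genes of each related list with the smallest p of both injured groups against Ctrl, 5 genes chosen for interest (Il15, Ifng, Klrk1, Gzmk, Gzmm) and the 5 genes most like the list. The other genes named, such as Cd244a, Itgam, Tyrobp, Il18rap, Klra8, Ccl3 and Ccr7, were chosen after their values were seen. Genes and lists were chosen with earlier results of these data known. Of the 3 receptors planned as the comparison for granule genes, Klrb1c had no value, so that Ncr1 and Klrd1 were used.

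Alternatives comprised the methods' t-test, a 2-fold threshold, the arrays of the compared groups only, a variance trend, array weights, equal medians, repeated quantile normalization, genes with a mean above the median, a gene's mean over its probe sets, its probe set with the highest SD, a replicate block and leaving out each array in turn.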

Additional observations from a re-analysis of the deposited data

Results flagged for a closer look

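The difference of Gzma from Ctrl was less negative in PT+HS than in PT, with a gap of 1.03 on the log2 scale. The gap is the difference of PT+HS from PT given above, and with limma on all arrays it passed the study's thresholds. The PT+HS animals had 8.36, 9.06 and 8.79, and the PT animals 8.27, 6.66 and 8.20. The adjusted p of limma was 1.0 over all genes, and without PT replicate 2 the gap was 0.50. The call was also lost without PT+HS replicate 2 (0.86) or PT+HS replicate 3 (1.0). Nor did it pass with the methods' t-test, the arrays of the compared groups only or array weights (0.54).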

How the results depend on the processing

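A 2-fold threshold left 0 of the 9 genes in PT+HS against Ctrl, 3 in PT against Ctrl and 2 in both injured groups. The share of all genes past this threshold was not counted. Under array weights PT replicate 1 made up 86.89% of the PT mean, replicate 2 3.976% and replicate 3 9.131%, so that PT was mostly 1 animal. The median in PT against Ctrl was then -0.68, and 4 genes (Gzma, Ncr1, Nkg7, Tbx21) had an adjusted p under 0.05 in PT and 2 (Gzma, Tbx21) in both injured groups. Over all 18194 genes 448 had so in PT and 240 in both injured groups, against 0 and 2 without weights. In PT+HS against PT, 0 genes passed the thresholds with the methods' t-test, with the arrays of the compared groups only or with array weights. Leaving out each array in turn gave medians of -0.72 to -0.35 in PT+HS against Ctrl and -1.07 to -0.71 in PT against Ctrl. It gave 1 to 4 genes past the thresholds in PT+HS against Ctrl (1 without Ctrl replicate 3 or PT+HS replicate 3) and 0 to 2 in PT+HS against PT (2 without PT replicate 1). It gave 0 to 1 genes at an adjusted p under 0.05 in PT (Gzma) and 0 to 2 in both injured groups (Gzma and Tbx21), the higher numbers without PT replicate 2. Without that array 47 of all 18194 genes had such a p in PT and 92 in both injured groups. Of all genes, 486 to 831 passed the thresholds in PT+HS against Ctrl without each array in turn. In PT against Ctrl 530 to 1493 passed, and in PT+HS against PT 187 to 855.

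Some signs turned, and the cause was not tested. Prf1 in PT against Ctrl was 0.11 with the mean of its probe sets and 0.30 with the one of highest SD, in both injured groups 0.02 and 0.11, and in PT+HS against PT -0.18 and -0.37. Repeated quantile normalization gave -0.0 for Prf1 in PT+HS against PT and 0.02 for Klrd1 in PT against Ctrl. Array weights gave 0.42 for Klrd1 and 0.07 for Gzmk in PT against Ctrl, and -0.15 for Gzmb, -0.12 for Prf1 and -0.26 for Klrd1 in PT+HS against PT. Relative to Ncr1 alone Gzmb was 0.11, and relative to Klrd1 alone Prf1 was -0.15.

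Leaving out each array in turn also turned the sign of single genes. In PT+HS against Ctrl the range was -0.20 to 0.18 for Prf1, -0.08 to 0.32 for Klrd1, -0.21 to 0.0 for Ccl5, -0.10 to 0.16 for Klrk1 and -0.10 to 0.23 for Gzmm. In PT against Ctrl it was -0.21 to 0.17 for Prf1, -0.78 to 0.97 for Klrd1 and -0.13 to 0.15 for Gzmk. In PT+HS against PT it was -0.09 to 0.09 for Prf1, -0.82 to 0.94 for Klrd1 and -0.02 to 0.59 for Nkg7. In both injured groups against Ctrl it was -0.21 to 0.17 for Prf1, -0.32 to 0.56 for Klrd1 and -0.22 to 0.11 for Gzmm.

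No pairing by replicate number is given, and the values do not settle it. Same-numbered animals of different groups deviated together with correlations of -0.115 to 0.478 (median -0.00516). For different-numbered animals they were -0.445 to 0.307 (median -0.00196). With a replicate block, the median differences stayed at -0.47, -0.89, 0.27 and -0.68 in PT+HS against Ctrl, PT against Ctrl, PT+HS against PT and both injured groups against Ctrl. With the block 2, 6, 1 and 5 genes passed in the same order, with Nkg7 lost in PT+HS and Gzmb gained in both injured groups. The fit to compared groups only was not run for both injured groups, which takes in every array. The filter on mean signal leaves out Tbx21. The number of arrays limits all calls.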
